A study of Mus musculus with 6 samples.

Results

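The VEGF family and a set of related angiogenic factors were examined in p62 knockout and parental MOC2 cells, which derive from an oral squamous cell carcinoma of the mouse. The 10 genes were chosen by name: the ligands Vegfa, Vegfb, Vegfc, Vegfd and Pgf, the receptor Flt1, the coreceptors Nrp1 and Nrp2, and the secreted factors Angpt2 and Angptl4. All 10 were found among the 25526 genes listed, and 9 passed the filter on low counts; Vegfd did not. Gene expression had been measured by poly(A) RNA-seq in 3 libraries of MOC2 cells in which p62, a selective autophagy receptor and the product of Sqstm1, was knocked out by CRISPR-Cas9, and in 3 libraries of parental MOC2 cells with wild-type p62. Both groups were grown in serum-containing medium with no added treatment, and the labels describe cultures of the carcinoma cells alone. Whether the knockout libraries came from 1 clone, several clones or a pool is not stated, so p-values here reflect only how these libraries vary.

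VEGF-A is the main growth factor for blood vessel endothelium, and tumour cells are a common source of it. VEGF-A, VEGF-B and placental growth factor bind the receptor tyrosine kinase FLT1, VEGF-A also binds KDR, and VEGF-C and VEGF-D act mainly through FLT4 on lymphatic endothelium. Neuropilins are coreceptors that bind both VEGFs and class 3 semaphorins, and carcinoma cells often express them. Hypoxia is a well known inducer of Vegfa and Angptl4, through binding of HIF to a short core element in their regulatory DNA.

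The libraries held between 32821860 and 41763980 exon reads, and 3 reads, the limit that a count of 0 allows, came to between 0.0735 and 0.0917 CPM (read counts scaled to a common library size). Intervals and limits of this kind cover counting error only. Sqstm1 stood at 6.41%, 32.4% and 6.90% of the parental mean in knockout replicates 1, 2 and 3 (log2 fold change -2.71 ± 0.65, SE; edgeR adjusted p = 0.0480); that call was lost when any one library other than knockout replicate 2 was left out, at adjusted p-values of 0.0959 to 0.178. With all 6 libraries it was also just missed with RLE scaling (edgeR adjusted p = 0.0502) and with a filter of at least 5 CPM in 3 libraries (edgeR adjusted p = 0.0547). Knockout replicate 2 thus retained the most Sqstm1 RNA, and it also stood apart from the other two knockout libraries across genes. Per degree of freedom, a chi-square comparison of 2 libraries' counts, restricted to genes averaging 10 or more reads, gave 317 and 314 between knockout replicate 2 and knockout replicates 1 and 3, 7.77 between knockout replicates 1 and 3, and 40.8 to 98.4 between parental libraries. The fit without knockout replicate 2 is therefore given beside the fit of all 6 libraries. Its knockout group holds only knockout replicates 1 and 3, which were closer to each other than any parental pair. The SEs and p-values of that fit may therefore be too small. Of 13 epithelial markers, 10 passed the filter and their summed level was 4366 to 6530 TPM (transcript abundance per exon length) in knockout and 3861 to 4497 TPM in parental libraries, led by Krt18, Krt8 and Epcam. Krt8 was the one epithelial marker called, 2.53-fold higher in knockout cells (edgeR adjusted p = 0.0471). Markers of basal squamous cells were mixed: Krt17 stood at 104 to 197 TPM in knockout and 107 to 147 TPM in parental libraries and Krt14 at 12.6 to 54.3 TPM in knockout and 20.0 to 25.8 TPM in parental libraries, while Krt5 and Trp63 did not exceed 0.166 TPM in any library.

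The 250 bases upstream of the annotated start are shown for the 3 genes that the results turn on, since these are the coreceptor that rose, its paralogue that stood lower in every knockout library, and the most abundant ligand. Sequences are from RefSeq on build GRCm38.p6, which is not the GRCm39 build named for the deposited tables. Promoters of 8 of the 10 genes matched, and Angptl4 and Angpt2 had none in that table. Capitals mark ACGTG and GCGTG, which are 2 forms of the HIF core, and GGGCGG, the GC box bound by Sp1, on either strand. The sequence of Nrp1 lies at chr8:128358823-128359072 on the plus strand, that of Vegfa at chr17:46032378-46032627 on the minus strand and that of Nrp2 at chr1:62703067-62703316 on the plus strand, each printed 5′ to 3′ along the gene.
Nrp1: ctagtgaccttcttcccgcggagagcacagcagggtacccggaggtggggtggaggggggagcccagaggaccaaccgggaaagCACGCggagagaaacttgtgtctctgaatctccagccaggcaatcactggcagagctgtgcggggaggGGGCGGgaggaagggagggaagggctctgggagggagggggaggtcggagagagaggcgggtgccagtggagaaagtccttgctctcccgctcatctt
Vegfa: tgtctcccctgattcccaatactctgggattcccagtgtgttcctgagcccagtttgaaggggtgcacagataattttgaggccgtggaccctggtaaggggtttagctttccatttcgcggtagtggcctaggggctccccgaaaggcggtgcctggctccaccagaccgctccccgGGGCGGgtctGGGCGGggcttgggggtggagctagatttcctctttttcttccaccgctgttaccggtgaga
Nrp2: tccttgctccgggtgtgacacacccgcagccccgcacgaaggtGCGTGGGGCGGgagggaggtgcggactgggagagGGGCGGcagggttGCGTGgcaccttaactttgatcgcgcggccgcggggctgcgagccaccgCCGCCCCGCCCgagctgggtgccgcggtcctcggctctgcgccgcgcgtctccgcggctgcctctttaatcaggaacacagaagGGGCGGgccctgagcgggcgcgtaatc
The Nrp1 window held 1 match to GCGTG and 1 GC box, and the Nrp2 window 2 matches to GCGTG and 5 GC boxes, of which one GCGTG directly adjoins a GC box and a pair of GC boxes share a base. The window of the upstream Vegfa start held 2 GC boxes and no match to ACGTG or GCGTG, so the HIF core was not among these 250 bases. A second Vegfa start listed by RefSeq lies downstream of the first, so its window, at chr17:46025164-46025413, is DNA within the gene. That window held 1 match each to ACGTG and GCGTG, and whether these act as regulatory DNA was not tested. Over 32851 promoter windows of this length, 38.6% held ACGTG or GCGTG and 32.7% held a GC box. TGANTCA, a form of the AP-1 site, was found in 6.75% of all windows and in 0 of the 10 windows of these genes.

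The comparison of p62 knockout with parental cells asked how loss of p62 alters the transcriptome. Nrp1 was higher in knockout cells, and it was the one gene of the 9 tested that passed the test. It was 4.46-fold higher. Vegfa, Vegfc, Nrp2 and Flt1 were below the parental range in all 3 knockout libraries, which was so for 19% of all tested genes, but did not pass, and Angptl4 was high in knockout replicates 1 and 3 only. Vegfb, the second ligand by level in parental cells, differed by 1.10-fold and did not pass. Over all 12775 genes tested, 3.48% were called higher and 5.6% lower at an edgeR adjusted p below 0.05, so 1 gene of 9 is close to the 9.08% called in either direction.

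**Figure D1:**
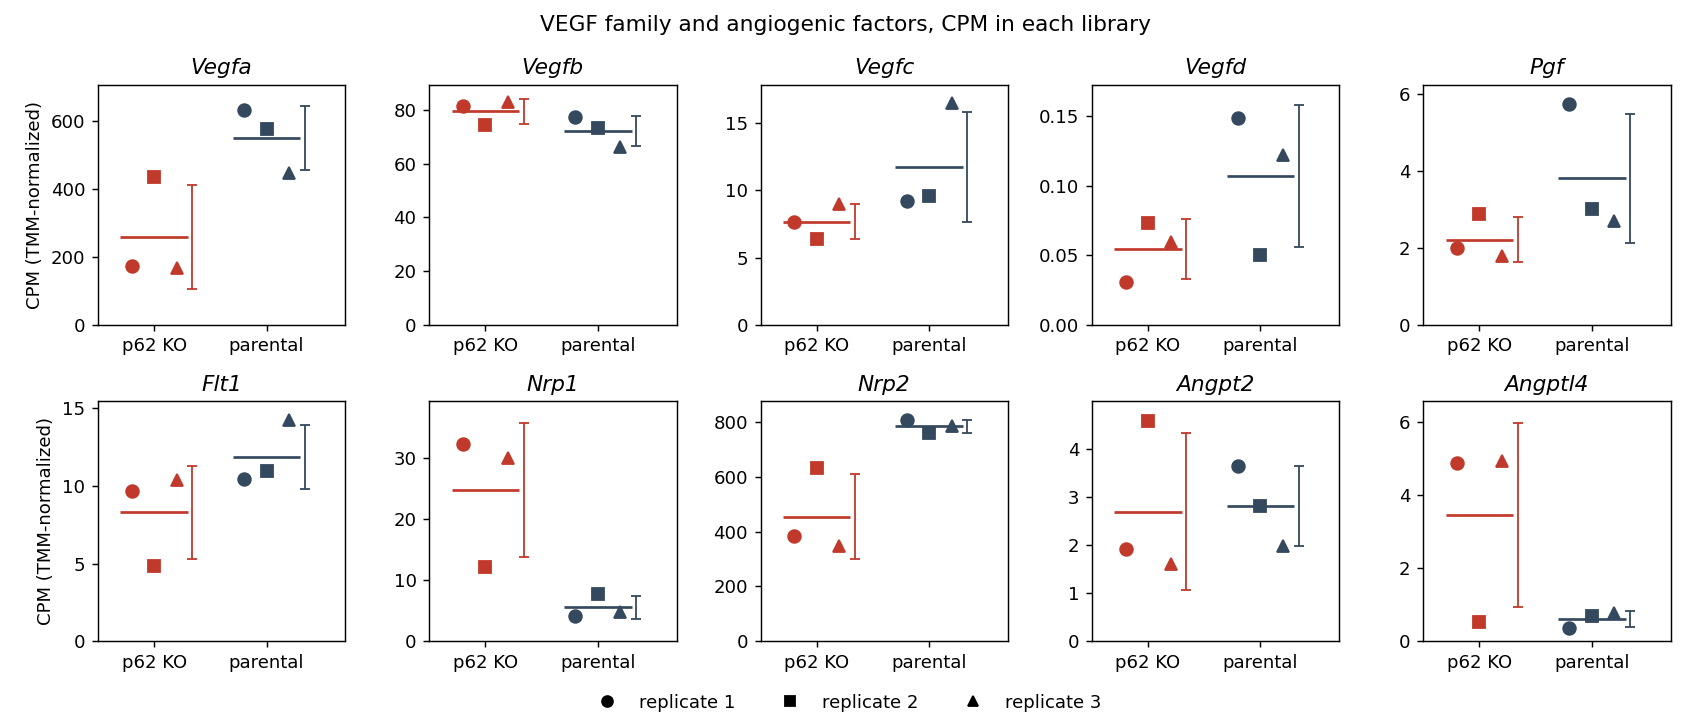
CPM, normalized by the TMM method, of each gene in the p62 knockout (red, left) and parental (dark, right) libraries. Marker shape gives the replicate number, horizontal lines are group means, and bars beside them are SDs over 3 libraries. Nrp1 lies between 12.2 and 32.3 CPM in knockout libraries, all above the parental maximum of 7.68 CPM.

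Among the ligands, Vegfa was the most abundant gene of the set in parental cells per exon length. It stood at 172, 436 and 167 CPM in knockout replicates 1, 2 and 3, against 631, 575 and 447 CPM in parental replicates 1, 2 and 3. The groups did not overlap, but knockout replicate 2 was only slightly under the lowest parental library, at 79.1% of the parental mean, while knockout replicates 1 and 3 were at 31.1% and 30.3%. The means were 258 ± 154 CPM in knockout and 551 ± 94.3 CPM in parental cells (SD, n = 3 each), a log2 fold change of -1.09 ± 0.39 (SE; edgeR adjusted p = 0.107). Vegfa therefore did not pass over all 6 libraries. Without knockout replicate 2 it fell by 1.72 on the log2 scale (SE 0.16; edgeR adjusted p = 0.000974). That fit called 23% of genes higher and 23.2% lower, so a call in it is common. DESeq2 called Vegfa lower with all 6 libraries (adjusted p = 0.0328), and it called 11% of all genes lower.

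Vegfb, which encodes a ligand of FLT1 with known roles in fatty acid handling, was the steadiest gene of the set. Knockout libraries held 81.4, 74.3 and 83.0 CPM of it, and parental ones 77.2, 73.4 and 66.2 CPM. The groups overlapped, and edgeR gave a log2 fold change of 0.14 ± 0.12 (SE) and an adjusted p of 0.463. The ratio of Vegfa to Vegfb, per exon length, was 0.767, 2.13 and 0.731 in knockout replicates 1, 2 and 3, against 2.97, 2.85 and 2.46 in parental cells. Vegfb was thus the more abundant ligand RNA in knockout replicates 1 and 3, and Vegfa in the other 4 libraries.

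The lymphatic ligand Vegfc was low. It stood at 7.67, 6.35 and 8.96 CPM in knockout and at 9.22, 9.57 and 16.5 CPM in parental libraries. The groups did not overlap, yet knockout replicate 3 and parental replicate 1 nearly met, and the log2 fold change of -0.62 ± 0.28 did not pass (SE; edgeR adjusted p = 0.177). Parental replicate 3 set much of that difference: without it the log2 fold change was -0.29. Knockout replicate 2 was the lowest library for Vegfc, unlike for Vegfa. Pgf, placental growth factor, had 1.99, 2.87 and 1.78 CPM in knockout and 5.72, 3.00 and 2.69 CPM in parental libraries. Its groups overlapped and it did not pass (log2 fold change -0.78 ± 0.37, SE; edgeR adjusted p = 0.192). Parental replicate 1 set much of that difference: without it the log2 fold change was -0.36. Vegfd, the other lymphatic ligand, had 1, 3 and 2 reads in knockout and 6, 2 and 4 reads in parental libraries, which is at or near the 3 reads a count of 0 allows, so no difference was detectable at this depth.

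Summed over the 5 ligands, the level was 289, 442 and 277 TPM in knockout replicates 1, 2 and 3, against 635, 593 and 449 TPM in the parental libraries. Vegfa made up 41.9%, 66.6% and 40.6% of this sum in knockout and 72.8%, 72.3% and 68.0% in parental libraries. Most of the lower sum lay in Vegfa, since Vegfb averaged 149.9 ± 10.5 TPM in knockout and 143 ± 16.7 TPM in parental cells (SD, n = 3 each).

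**Figure D2:**
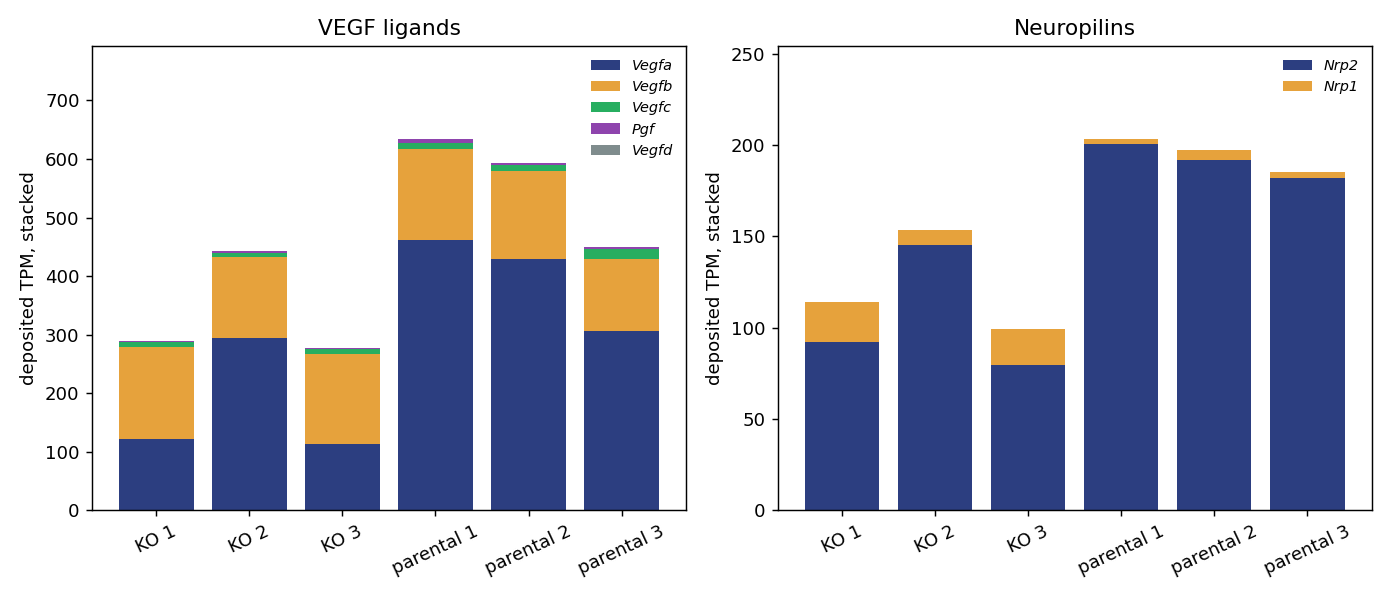
Deposited TPM of the 5 VEGF ligands (left) and the 2 neuropilins (right), stacked for each library, p62 knockout libraries before parental ones. The Vegfa segment is shortest in knockout replicates 1 and 3, at 121 and 112 TPM, and the Nrp1 segment is longest there, at 22.3 and 19.8 TPM.

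The neuropilins lay on opposite sides of their parental levels in all 3 knockout libraries. Nrp1 stood at 32.3, 12.2 and 30.0 CPM in knockout replicates 1, 2 and 3, against 4.21, 7.68 and 4.79 CPM in parental replicates 1, 2 and 3. Every knockout library was above every parental one, with knockout replicate 2 the closest to the parental range, at 2.19-fold of the parental mean against 5.81-fold and 5.40-fold in knockout replicates 1 and 3. The means were 24.8 ± 11.0 CPM in knockout and 5.56 ± 1.86 CPM in parental cells (SD, n = 3 each), a log2 fold change of 2.16 ± 0.42 (SE; edgeR adjusted p = 0.0322). All 3 knockout libraries lay above all parental ones for 17.2% of tested genes. Without knockout replicate 2, edgeR gave 2.47 ± 0.26 (log2, SE) and an adjusted p of 0.00135. The edgeR call was lost when any one of the other 5 libraries was left out, at edgeR adjusted p-values between 0.0786 and 0.118, with log2 fold changes between 1.93 and 2.45.

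Nrp2 was by far the more abundant neuropilin in every library. It had 384, 634 and 347 CPM in knockout replicates 1, 2 and 3 and 807, 759 and 786 CPM in the parental libraries. All knockout libraries were below all parental libraries, and the parental libraries were close to each other. The means were 455 ± 156 CPM in knockout and 784 ± 24.1 CPM in parental cells (SD, n = 3 each), and the log2 fold change of -0.78 ± 0.24 did not pass (SE; edgeR adjusted p = 0.0786). Without knockout replicate 2 it fell by 1.12 on the log2 scale (SE 0.10; edgeR adjusted p = 0.000873), and DESeq2 called it lower with 6 libraries (adjusted p = 0.0240). Per exon length, the ratio of Nrp2 to Nrp1 was 4.12, 18.0 and 4.01 in knockout cells, against 66.4, 34.2 and 56.8 in parental cells. Nrp1 made up 19.5%, 5.25% and 20.0% of neuropilin TPM in knockout and 1.48%, 2.84% and 1.73% in parental libraries.

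Flt1, the receptor for VEGF-A, VEGF-B and placental growth factor, was found at low levels. It stood at 9.66, 4.85 and 10.4 CPM in knockout and at 10.4, 11.0 and 14.2 CPM in parental libraries. The groups did not overlap, but knockout replicate 3 and parental replicate 1 were almost equal, at 10.39 and 10.41 CPM, and the log2 fold change of -0.52 ± 0.31 did not pass (SE; edgeR adjusted p = 0.285). Knockout replicate 2, with the most Sqstm1 RNA of the knockout libraries, had the lowest Flt1.

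Angptl4, a secreted inhibitor of lipoprotein lipase that PPARs and hypoxia induce, differed most within the knockout group. It had 4.89, 0.539 and 4.93 CPM in knockout replicates 1, 2 and 3, against 0.372, 0.705 and 0.763 CPM in the parental libraries. Knockout replicate 2 lay inside the parental range, and the other two knockout libraries were 7.97-fold and 8.03-fold above the parental mean. The counts behind these values were 160, 22 and 166 reads in knockout and 15, 28 and 25 reads in parental libraries. Over all 6 libraries the log2 fold change of 2.49 ± 0.79 did not pass (SE; edgeR adjusted p = 0.0853). It was 2.99 ± 0.32 without knockout replicate 2 (SE; edgeR adjusted p = 0.00144), and DESeq2 called it with all 6 (adjusted p = 0.00699), where 11.6% of genes were called higher.

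Angpt2, angiopoietin 2, which antagonises the endothelial receptor TEK in many settings, showed no shared direction. It had 1.92, 4.58 and 1.60 CPM in knockout and 3.64, 2.82 and 1.98 CPM in parental libraries. Knockout replicate 2 was the highest of all libraries and knockout replicate 3 the lowest, and edgeR gave a log2 fold change of -0.06 ± 0.46 (SE) and an adjusted p of 0.943. Its sign was positive when knockout replicate 1, knockout replicate 3 or parental replicate 1 was left out. Without knockout replicate 2 the log2 fold changes of the 5 genes not called in either fit were 0.17 for Vegfb, -0.51 for Vegfc, -1.03 for Pgf, -0.26 for Flt1 and -0.69 for Angpt2, at edgeR adjusted p-values of 0.0659 to 0.296.

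**Figure D3:**
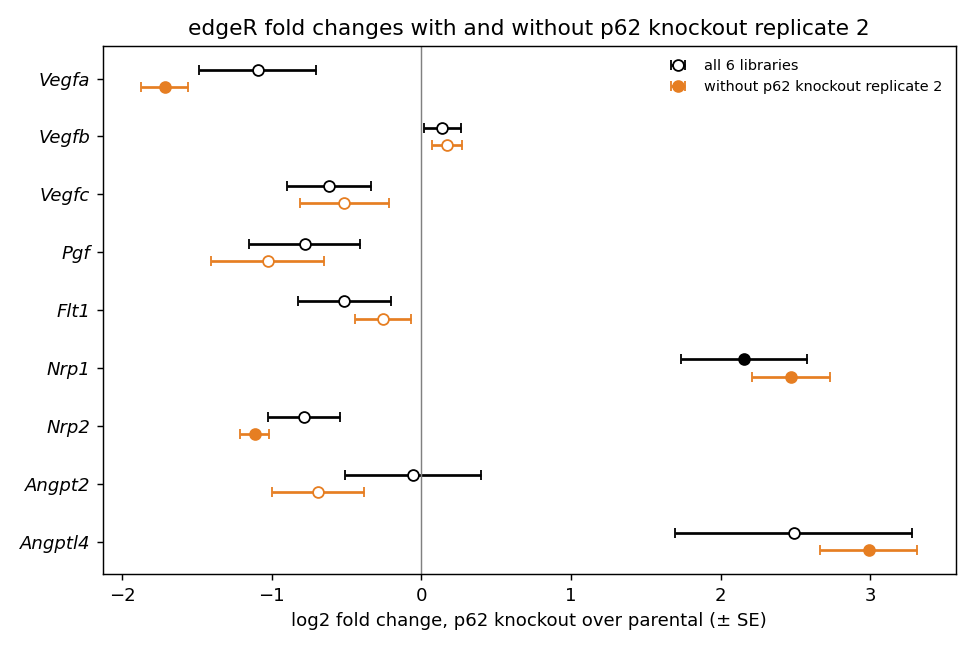
Log2 fold change, p62 knockout over parental, with its SE for the 9 tested genes, from all 6 libraries (black) and without p62 knockout replicate 2 (orange); filled points passed an edgeR adjusted p below 0.05. Nrp1 alone is filled with 6 libraries; Vegfa, Nrp1, Nrp2 and Angptl4 are filled without that library.

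The order of the genes by level was read in TPM, which divides by exon length. In knockout cells the order of means was Vegfa at 176, Vegfb at 149.9 and Nrp2 at 106 TPM, and neighbours among these overlapped over the libraries. Nrp1 followed at 16.7 and Vegfc at 7.55 TPM, which overlapped too, and Pgf, Angptl4, Flt1 and Angpt2 lay together between 1.83 and 2.56 TPM. In parental cells it was Vegfa at 399, Nrp2 at 192, Vegfb at 143 and Vegfc at 12.1 TPM, and none of these overlapped its neighbour. Pgf, Nrp1, Flt1 and Angpt2 came next, at 4.66, 3.95, 2.73 and 2.02 TPM, each overlapping the one after it, and Angptl4 was at 0.468 TPM. Vegfd was lowest in both groups, at 0.0638 TPM in knockout and 0.132 TPM in parental cells.

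The libraries were then searched for genes whose pattern was closest to each of the 9 tested genes, by the root mean square distance of log2 CPM, centred on each gene's mean, over the 6 libraries. Vegfa was closest to Tecpr1, which encodes a protein that links autophagosomes to lysosomes, and to Oplah, 5-oxoprolinase, at distances of 0.07 and 0.08. Tecpr1 stood at 160, 382 and 164 CPM in knockout and at 619, 543 and 395 CPM in parental libraries. Angptl4 was closest to Gen1, a Holliday junction resolvase, and Acat2, a cytosolic acetyl-CoA acetyltransferase of sterol synthesis, at 0.12 and 0.14. Acat2 had 154, 15.4 and 146 CPM in knockout and 15.2, 21.8 and 24.0 CPM in parental libraries, with knockout replicate 2 again inside or near the parental range. Nrp2 was closest to Kif3a, a kinesin motor subunit, and Sash1, at 0.05 each. The nearest genes to Nrp1, Pop1 and Haus5, were farther off, at 0.26 and 0.27. The remaining pairs were Mtg2 and D17H6S53E for Vegfb, H2-Q4 and Lix1l for Vegfc, Hemk1 and Shisa7 for Pgf, Gpr149 and Tnfrsf1b for Flt1, and Reep6 and Sel1l for Angpt2, at 0.02 to 0.15. H2-Q4 has near-identical paralogues, so its value is uncertain. The search compared 10085 candidates over only 6 libraries. How small the nearest distance would be for an arbitrary gene was not tested. The pairs therefore describe similar relative patterns over these libraries only, and not similar levels. Whether any pair, including Vegfa and Tecpr1, shares a function or regulation was not tested.

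Other genes of the pathway were counted in 5 lists, in which 109 genes were found and 88 tested. Of these 88, 2 were higher, 8 lower and 78 did not pass, against 9.08% called over all tested genes and 11.4% here. Receptors, semaphorins and plexins had 2 of 16 lower and 0 higher, and 14 did not pass, with a median log2 fold change of -0.44 against 0.02 for all tested genes. Plxnd1, a plexin that binds semaphorin 3E and acts in vessel patterning, fell 2.98-fold: it had 5.22, 8.77 and 5.05 CPM in knockout and 15.3, 21.3 and 20.3 CPM in parental libraries (edgeR adjusted p = 0.0259). Flt4, the receptor for VEGF-C and VEGF-D, fell 1.61-fold, to 12.0, 10.3 and 11.7 CPM in knockout, against 17.1, 18.2 and 19.4 CPM in parental libraries (edgeR adjusted p = 0.0420). In both genes all knockout libraries lay below all parental ones, which was so for 19% of all tested genes.

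Other angiogenic factors had 1 of 19 higher and 0 lower, and 18 did not pass (median log2 fold change -0.15). The higher gene was Edn1, endothelin 1, at 15.1, 9.68 and 13.4 CPM in knockout and 2.40, 2.47 and 1.95 CPM in parental libraries (log2 fold change 2.48 ± 0.24, SE; edgeR adjusted p = 0.00719). Unlike Angptl4, it was clearly above the parental range in knockout replicate 2. Angiogenesis inhibitors had 1 of 15 lower and 0 higher, and 14 did not pass, with a median log2 fold change of -0.77. Thbs2, thrombospondin 2, fell to 0.397, 0.123 and 0.742 CPM in knockout, against 1.61, 3.55 and 2.17 CPM in parental libraries (log2 fold change -2.55 ± 0.62, SE; edgeR adjusted p = 0.0496). Its counts were low, at 13, 5 and 25 reads in knockout and 65, 141 and 71 reads in parental libraries. In this list 9 of 15 genes had all knockout libraries below all parental ones, against 19% of all tested genes.

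Hypoxia targets had 1 of 23 higher and 3 lower, while 19 did not pass, and their median log2 fold change was 0.16. Egln1, a prolyl hydroxylase that marks HIF for degradation, rose 1.73-fold (edgeR adjusted p = 0.04996), with 189, 128 and 178 CPM in knockout and 112, 91.5 and 81.2 CPM in parental libraries. Pfkfb3, a glycolytic regulator, fell 1.63-fold to 25.7, 21.8 and 21.3 CPM in knockout, against 35.1, 39.7 and 37.0 CPM in parental libraries (edgeR adjusted p = 0.0350). P4ha2, a collagen prolyl hydroxylase, fell 1.59-fold to 44.2, 39.1 and 44.0 CPM in knockout, against 69.7, 67.5 and 65.9 CPM in parental libraries (edgeR adjusted p = 0.0281). The third lower gene was Mxi1, a MAX-binding repressor, which is named because the count is small and not by the rule for named genes. Targets of hypoxia thus lay on both sides. Ldha had 1579, 556 and 1553 CPM in knockout replicates 1, 2 and 3, against 538, 507 and 501 CPM in parental libraries, so knockout replicate 2 was close to the parental level (edgeR adjusted p = 0.0755). Hk2 averaged 151 ± 16.9 CPM in knockout and 233 ± 35.4 CPM in parental cells (SD, n = 3 each; edgeR adjusted p = 0.0527). Neither passed, and both were picked as examples after their values were seen.

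PPAR targets and genes of lipoprotein lipase handling had 2 of 16 lower and 0 higher, and 14 did not pass (median log2 fold change -0.24). Lipe, hormone-sensitive lipase, fell 1.75-fold, with 17.8, 20.1 and 17.3 CPM in knockout and 27.2, 32.8 and 36.7 CPM in parental libraries (edgeR adjusted p = 0.0341). Acadvl, an acyl-CoA dehydrogenase of mitochondrial fatty acid oxidation, fell 1.72-fold, with 50.0, 39.4 and 53.9 CPM in knockout and 85.5, 85.0 and 76.6 CPM in parental libraries (edgeR adjusted p = 0.0326). Lpl, added here because ANGPTL4 inhibits the lipase it encodes, averaged 2.40 CPM in knockout and 2.30 CPM in parental cells and did not pass (edgeR adjusted p = 0.941). Without knockout replicate 2, where 23% of all genes were higher and 23.2% lower, 1 of 16 receptors and guidance ligands was higher and 6 lower, 5 of 19 other angiogenic factors were higher and 3 lower, and 0 of 15 inhibitors were higher and 7 lower. In the same fit 6 of 23 hypoxia targets were higher and 5 lower, and 5 of 15 PPAR and lipase genes were higher and 7 lower. All 9 pathway genes named by the rule were called there in the same direction. So were all 1160 genes called with all 6 libraries, so this adds no support for the 9. When any one of the other 5 libraries was left out, Flt4, Thbs2, Egln1, Pfkfb3, P4ha2, Lipe and Acadvl kept their direction but were no longer called by edgeR, at adjusted p-values of 0.0505 to 0.194. Plxnd1 was called without parental replicate 1 but not without any one of the other four, and Edn1 lost its call only without parental replicate 2 (edgeR adjusted p = 0.0566).

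**Figure D4:**
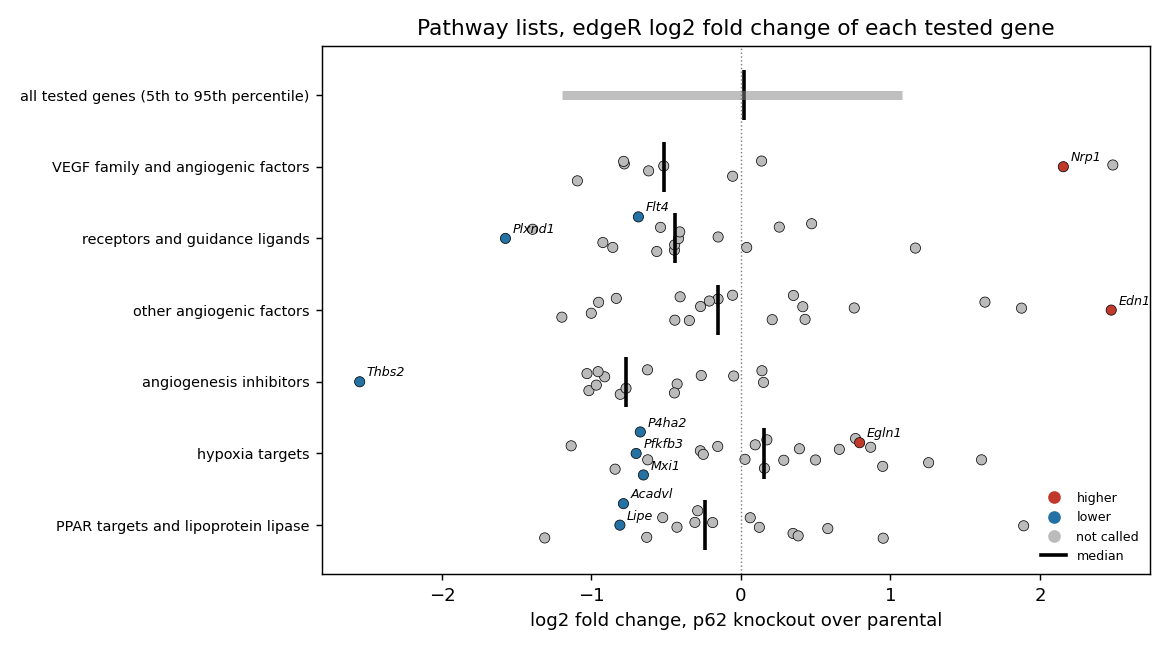
Log2 fold change, p62 knockout over parental, of each tested gene in the VEGF set and in 5 pathway lists; red and blue points passed the edgeR test as higher or lower, black bars are medians, and the grey bar spans the 5th to 95th percentile of all tested genes. The median is lowest for angiogenesis inhibitors, at -0.77, and 0.16 for hypoxia targets.

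Markers of cells that could add VEGF receptors or angiogenic factors were low in every library. Of 15 endothelial markers 13 were below 1 TPM in all libraries and Emcn was at 0 in all. Their sum was 3.63 to 5.25 TPM in knockout and 5.00 to 8.62 TPM in parental libraries, led by Egfl7, and 0 of the 3 tested passed (edgeR). Of 14 leukocyte markers 13 were below 1 TPM throughout, with Cd3e and Tyrobp at 0 and sums of 1.94 to 3.28 TPM in knockout and 1.90 to 2.51 TPM in parental libraries. The 11 fibroblast markers summed to 1.80 to 2.39 TPM in knockout and 6.87 to 9.85 TPM in parental libraries; Dpt and Lum were at 0 in all, and Pdgfra and Col3a1 were lower among the 4 tested. The 10 pericyte and smooth muscle markers summed to 6.89 to 10.0 TPM in knockout and 9.76 to 13.1 TPM in parental libraries. Of the 4 tested, Rgs5 was called lower. Notch3 had a negative log2 fold change (-0.92) and Mcam (0.79) and Tagln (0.59) positive ones, and none of these passed (edgeR). Among the fibroblast markers Pdgfra led, averaging 0.898 TPM in knockout and 3.13 TPM in parental cells. Col3a1 followed, averaging 0.538 TPM in knockout and 2.94 TPM in parental cells. Vegfa averaged 176 TPM in knockout and 399 TPM in parental cells, and Nrp2 106 and 192 TPM. The part of fibroblast RNA in the Vegfa and Nrp2 results was not tested. In bulk RNA, fewer cells of a type and less RNA per cell cannot be told apart.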

How the data were processed

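RNA-seq of 3 p62 knockout and 3 parental MOC2 libraries was analysed. Per the file headers, every deposited table gives per gene the exon length, a TPM value and both total and unique exon reads. Total reads, the main input, are deposited as raw whole-number counts. The authors' TPM could be rebuilt from reads and exon lengths with a largest difference of 6.00e-11. The submitters' processing notes name build GRCm39. Aligner, counter, annotation and strandedness of counting were not given in the sources used; overlapping and antisense genes therefore cannot be told apart.

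Groups followed the genotype label. The main test was edgeR 4.0.16 (quasi-likelihood, R 4.3.3) after filterByExpr and TMM scaling, with no covariate, and p-values were adjusted by Benjamini-Hochberg across 12775 genes. CPM are TMM-scaled. The test was checked on simulated data. Recovery of most planted changes of 2 on the log2 scale was required only where the simulated libraries varied little. It was not required at the spread seen in these libraries, nor for the smaller planted changes at either spread. Alternatives were scaling by RLE or by the upper quartile, no filter, a filter of at least 5 CPM in 3 libraries, DESeq2 1.42.0, limma-voom (limma 3.58.1), unique reads, the replicate number as a block, and each library left out. The genes, the lists and the rule for named genes (at most 2 called genes a direction per list, or the gene with the smallest p; 2 nearest patterns per gene) were chosen with earlier results of these data known. Both fits that leave out parental replicate 2 with another tool were added after seeing the data.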

Additional observations from a re-analysis of the deposited data

How the results depend on the processing

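Nrp1 kept its direction in all 14 alternatives and its call in 8 of them; Vegfa, Nrp2 and Angptl4 kept their direction in each alternative that tested them and were called only by DESeq2 and without knockout replicate 2. Vegfb, Vegfc, Pgf and Flt1 kept their direction and were never called. The sign of Angpt2 turned, to 0.16, 0.21 and 0.18 (log2), without knockout replicate 1, knockout replicate 3 and parental replicate 1, and ranged between -0.69 and 0.21 over all sets of 5 libraries; the cause was not tested.

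Over all genes, 445 were called higher and 715 lower; DESeq2 called 1479 and 1402. Leaving out each library in turn gave 0 to 2972 higher and 0 to 3001 lower, the most without knockout replicate 2, where all 1160 called genes were called again in the same direction. Without parental replicate 2 edgeR called 0 genes, with 1207 higher and 1287 lower at an unadjusted p under 0.05; limma-voom called 0 and DESeq2 425 and 568. DESeq2 without that library still called Nrp1 and Angptl4 higher (adjusted p = 0.0478 for Angptl4). In the VEGF set, DESeq2 called 2 higher and 2 lower, and leaving out each library gave 0 to 2 in either direction. Such fits have fewer samples, so a lost call does not show a weaker effect.

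In the pathway lists, DESeq2 called 1 higher and 4 lower among receptors and, in the same order, 3 and 2 among angiogenic factors, 0 and 7 among inhibitors, 5 and 4 among hypoxia targets and 2 and 3 among PPAR targets. Leaving out libraries gave 0 to 1 higher and 0 to 6 lower for receptors, 0 to 5 and 0 to 3 for angiogenic factors, 0 to 7 lower for inhibitors, 0 to 6 and 0 to 5 for hypoxia targets, and 0 to 5 and 0 to 7 for PPAR targets. Inhibitors had 2 lower with upper quartile scaling and without a filter, and 0 with the filter of at least 5 CPM in 3 libraries. Hypoxia targets had 0 higher with upper quartile scaling, that filter and limma-voom. Receptors had 1 higher with unique reads, and 1 higher and 1 lower without a filter.

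No pairing by replicate number was evident: same-numbered deviations from the group means correlated at -0.37, -0.10 and 0.28, and differently numbered ones at -0.33 to 0.39. With 3 libraries a group, these values cannot settle whether the numbers pair the libraries. With the replicate block, 54 genes were higher and 203 lower, 0 of the VEGF set were called (Nrp1 at an edgeR adjusted p of 0.0725), and the lists had 1 receptor lower and 0 inhibitors lower, 0 hypoxia targets higher or lower and 0 PPAR targets lower.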
